A study of Mus musculus with 20 samples.

Results

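A group of 6 genes that code for signalling peptides and receptors of the suprachiasmatic nucleus were followed through RNA sequencing of mouse hypothalamus slices. They were picked by symbol: the peptides Vip, Nms, Prok2 and Grp, and the receptors Vipr2 and Prokr2. All 6 were found among the 55471 genes counted, and all 6 passed the filter on low counts. The mice were wild-type C57BL/6, and the tissue of all 20 libraries is given as hypothalamus slice. The labels give 7 libraries of control mice fed ad libitum (CON_Ad.lib), 7 of mice on a risperidone diet ad libitum (RISP_Ad.lib) and 6 of mice on the risperidone diet under pair-feeding (RISP_PF). Risperidone is an antipsychotic drug that blocks dopamine and serotonin receptors, and the drug diet lasted 4 weeks. In pair-feeding, intake is held to that of a reference group. The labels describe body weights that did not differ from those on control diet, without saying whether this covers 1 or both feeding conditions. They name no pair-fed control, so in the contrast of pair-fed risperidone with control the drug and the feeding regime cannot be told apart. They also do not give the animals' age, the time of day of collection, or whether each library is a separate mouse. The p-values are therefore only about the variation among these samples, part of which may be technical.

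The suprachiasmatic nucleus is the small paired nucleus above the optic chiasm that holds the master circadian clock of mammals. Its ventral, light-receiving part contains neurons that make vasoactive intestinal peptide (Vip) and gastrin-releasing peptide (Grp). Vasoactive intestinal peptide acts on the receptor VPAC2, the product of Vipr2, and this signal keeps the clock neurons in step with one another. Neuromedin S (Nms) marks a broad set of these neurons, and prokineticin 2 (Prok2) is a rhythmic output signal read by target areas through its receptor, the product of Prokr2. Several of the 6 genes are also used elsewhere in the forebrain, and Vip is a classic marker of a class of cortical interneurons.

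Vip and Prok2 showed the largest differences between groups among the 6, so the 250 bases before their annotated start are printed, from RefSeq on GRCm38.p6, 5′ to 3′ on the strand of the gene. The Vip window is chr10:5638968-5639217 on the plus strand, and the Prok2 window is chr6:99726393-99726642 on the minus strand. Capitals mark TGACGTC, which is all but the last base of the cyclic AMP response element, and CACGTG, the E-box bound by clock transcription factors.
Vip: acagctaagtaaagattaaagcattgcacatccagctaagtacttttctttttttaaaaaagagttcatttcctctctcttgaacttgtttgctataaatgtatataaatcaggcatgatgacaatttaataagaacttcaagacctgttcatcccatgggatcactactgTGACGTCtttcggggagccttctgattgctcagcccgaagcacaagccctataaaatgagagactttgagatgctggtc
Prok2: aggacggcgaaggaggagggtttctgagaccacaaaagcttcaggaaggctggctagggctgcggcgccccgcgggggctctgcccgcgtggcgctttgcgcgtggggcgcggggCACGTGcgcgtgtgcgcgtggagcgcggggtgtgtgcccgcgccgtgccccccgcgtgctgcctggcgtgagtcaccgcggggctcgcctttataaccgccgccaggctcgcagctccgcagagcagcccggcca
In Vip the capitals start 79 bases before the annotated start, and in Prok2 they start 135 bases before it. Both strands were searched in 32851 promoter windows of this length. TGACGTC was present in 2.78% of them, the full element TGACGTCA, which contains it, in 1.55%, and CACGTG in 6.02%. Windows were matched for 5 of the 6 genes, and of these only Vip held TGACGTC, only Prok2 held CACGTG, and none held TGACGTCA. The Vip window was 38.4% G and C and the Prok2 window 73.6%, around a median of 52.4% for all windows. A match of letters is a description of the sequence and was not tested as a site.

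On GRCm38, Vip (ENSMUSG00000019772) spans chr10:5639218-5647617 on the plus strand and Nms (ENSMUSG00000067604) chr1:38939149-38950276 on the plus strand. Prok2 (ENSMUSG00000030069) lies at chr6:99711299-99726392 on the minus strand and Grp (ENSMUSG00000024517) at chr18:65872820-65886596 on the plus strand. The receptor genes are Vipr2 (ENSMUSG00000011171) at chr12:116077726-116146261 on the plus strand and Prokr2 (ENSMUSG00000050558) at chr2:132337733-132385447 on the minus strand. Vipr2, Prok2 and Grp each overlap 1 antisense gene, which shares 0 exon bases with them and held 10, 69 and 1 counts respectively over all 20 libraries.

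Total counts ran from 17316043 to 18606543 in 19 libraries, and RISP_Ad.lib library 3 held 9748005. Levels are given as CPM, the counts of a gene relative to the TMM-scaled library size. The suprachiasmatic markers were detected: Six6, a transcription factor of the developing and adult nucleus, lay between 4.41 and 11.4 CPM, and Lhx1, another, between 4.96 and 12.7 CPM. The summed CPM of 8 such markers was 162 to 180.5 in the control group, 125 to 292 in RISP_Ad.lib and 168 to 190.1 in RISP_PF. Libraries 1 and 3 of the risperidone ad libitum group stood apart. Library 1 held the lowest value, and library 3 the highest, of the summed suprachiasmatic markers. In library 3, Six6 (7.89 CPM) and Lhx1 (7.18 CPM) were within their control ranges. Zfhx3, another of the 8, reached 167 CPM in RISP_Ad.lib, against at most 75.2 in controls. With Rorb at 32.1 CPM or more in that group, only the library 3 sum can hold this Zfhx3 value. In library 1, 10 markers of cortex, hippocampus and amygdala summed to 1327 CPM, against 117 to 239 in the other 19 libraries. There 10 markers of the hypothalamus summed to 525.8 CPM, against 903 to 1521 in the other 19. The cortical value of 239 was that of RISP_Ad.lib library 2. Library 2 also held the highest sum of 6 choroid plexus markers, at 209.7 CPM, with the next at 85.51. No fit left out libraries 1 and 2 together. The lower hypothalamic sum was not limited to library 1: 6 of 7 RISP_Ad.lib libraries and 2 of 6 RISP_PF libraries were below the lowest control, at 1192 CPM. Results for the 6 genes that rest on RISP_Ad.lib libraries 1 and 3 are given with and without them.

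All 6 genes were scarce in whole slices. In the control group the mean level was 1.19 ± 0.225 CPM for Vip, 0.414 ± 0.1102 for Nms, 1.51 ± 0.444 for Prok2 and 4.56 ± 0.670 for Grp (SD, n = 7). The receptors stood at 2.56 ± 0.290 CPM for Vipr2 and 6.75 ± 0.976 for Prokr2 (SD, n = 7). Compared per kilobase of annotated exons, the order from lowest to highest in controls was Vip, Nms, Vipr2, Prok2, Prokr2 and Grp. The values were 0.349, 0.414, 0.572, 0.787, 0.852 and 3.09 CPM per kb. Of the neighbours in this order, only Prokr2 and Grp had ranges that did not overlap over the 7 control libraries. Nms exceeded Vip in 4 of 7 controls, Vipr2 exceeded Nms in 7, Prok2 exceeded Vipr2 in 6 and Prokr2 exceeded Prok2 in 5. With the longest annotated transcript as the length, Vip (0.470) moved above Nms (0.414), and the rest kept their order. Among 14837 protein-coding genes tested, 6.5% were lower per kb than Vip in controls, 7.77% lower than Nms, 10.7% lower than Vipr2, 14.3% lower than Prok2, 15.1% lower than Prokr2 and 37.1% lower than Grp.

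Counts per library set the precision. In controls Vip had 17 to 29 counts, Nms 5 to 11, Prok2 14 to 38, Vipr2 38 to 54, Grp 69 to 97 and Prokr2 95 to 141. Counting error alone, taken as that of a Poisson count, would give a coefficient of variation of 21.5% for Vip in controls, and the libraries varied by 18.96%. The same pair of values was 36.3% and 26.6% for Nms, and 14.6% and 11.4% for Vipr2. For these 3 genes the spread between control libraries was no larger than counting error. The spread exceeded it for Prok2 (19.04% from counting and 29.4% between libraries), Prokr2 (9.01% and 14.5%) and Grp (11.0% and 14.7%). In RISP_Ad.lib the Vip libraries varied by 149.9%, where counting error would give 12.7%.

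**Figure D1:**
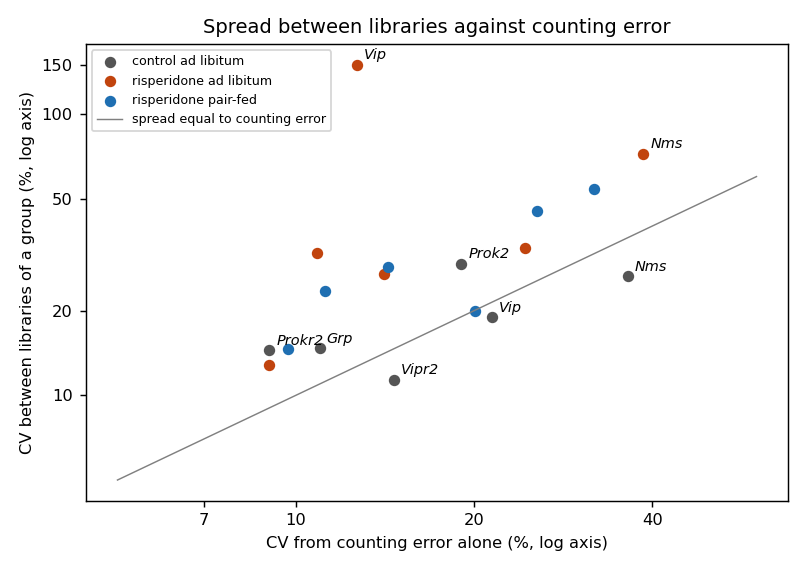
Coefficient of variation between libraries of a group (vertical, %, log axis) against the coefficient expected from counting error alone (horizontal, %, log axis), 1 point per gene and group, with the line of equality. Vip, Nms and Vipr2 in controls lie under the line, and Vip in risperidone ad libitum stands far above it at 149.9%.

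None of the 6 genes passed an adjusted p of 0.05 in any comparison (edgeR quasi-likelihood F test, Benjamini-Hochberg adjustment over 17893 genes). The background was low: 0.0615% of all genes passed in RISP_Ad.lib against control, 0.486% in RISP_PF against control, 0.397% in RISP_PF against RISP_Ad.lib and 0.33% for the risperidone groups averaged and set against control. Split by direction, the shares of all genes were 0.0168% higher and 0.0447% lower in the first contrast, 0.0503% and 0.436% in the next, 0.112% and 0.285% between the risperidone groups, and 0.0224% and 0.307% in the averaged one. At an unadjusted p under 0.05 the members were 2 of 6 (Vip, Prok2), 1 of 6 (Prok2), 2 of 6 (Vip, Prokr2) and 1 of 6 (Prok2) in the same order. All genes passed that level at 13.1%, 6.66%, 13.5% and 7.82%. By DESeq2 and by limma-voom, 0 of the 6 passed the adjusted threshold as well. No gene of the 6 had groups that did not overlap, a pattern seen in 0.33% of all genes for RISP_Ad.lib against control, 1.2% for RISP_PF against control and 0.632% between the risperidone groups. The median log2 fold change of the 6 was 0.17, 0.01 and -0.26 in these 3 contrasts, beside 0.00766, 0.00265 and -0.00486 for all genes. The contrasts with control share the same control libraries.

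**Figure D2:**
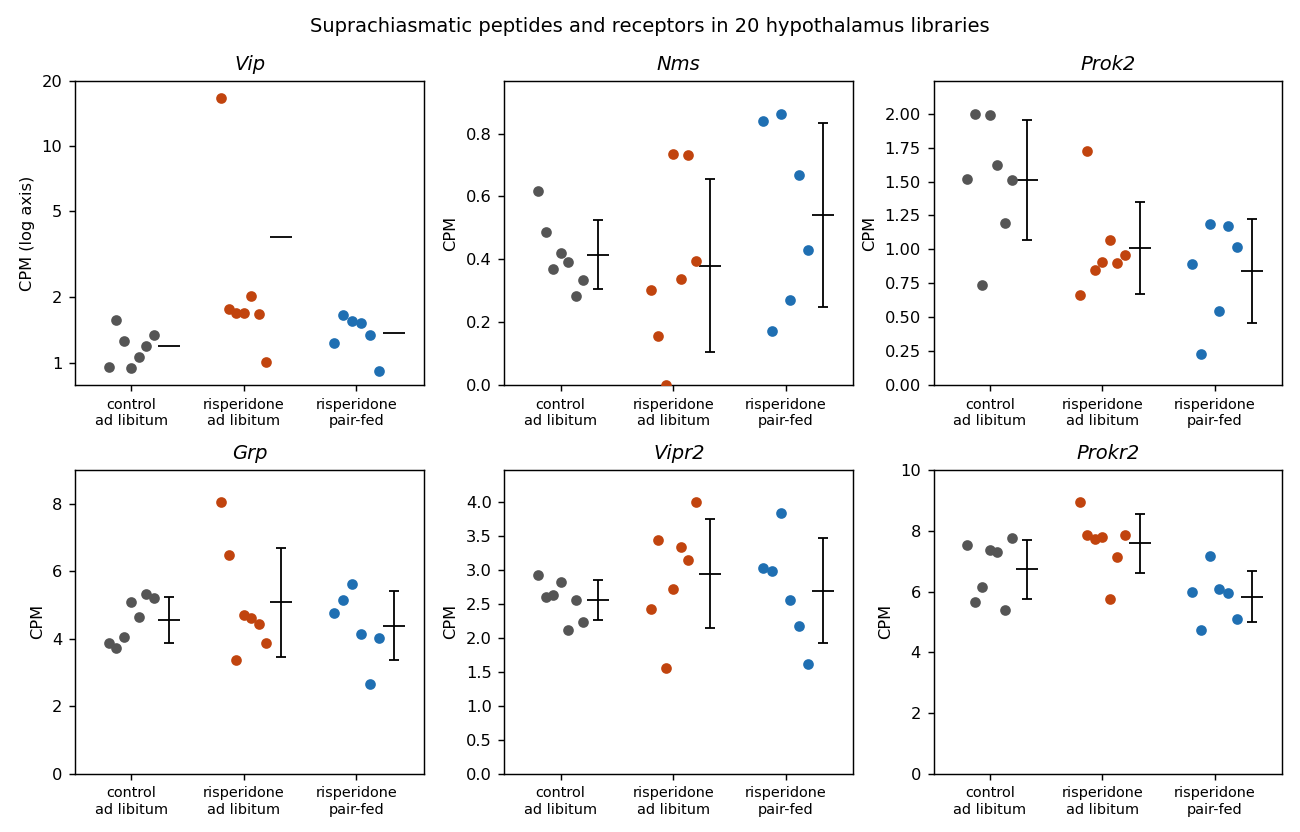
CPM of each gene in each library (points), with the group mean (bar) and SD (whiskers; not drawn for Vip, whose axis is a log scale). RISP_Ad.lib library 1 holds 16.7 CPM of Vip, and the RISP_PF points of Prok2 lie at or below 1.19 CPM.

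Vip, the peptide ligand that couples the clock neurons, was highest in a single risperidone library. The 7 controls had 0.942 to 1.57 CPM with a median of 1.19. The RISP_Ad.lib libraries had, in order of their labels, 16.7, 1.77, 1.69, 1.70, 2.03, 1.69 and 1.01 CPM. The 6 RISP_PF libraries had 1.23, 1.66, 1.57, 1.52, 1.34 and 0.911 CPM. Of the RISP_Ad.lib libraries 6 of 7 were above the highest control, and 1 was within the control range, while 5 of 6 RISP_PF libraries were above the control mean. The log2 fold change against control was 1.69 in RISP_Ad.lib (SE 0.513, 95% interval 0.62 to 2.75, edgeR adjusted p = 0.193). Library 1 alone held 63.3% of the Vip counts of its group and 8.21 times the next highest level of all 20 libraries. Without library 1 the log2 fold change was 0.47 (edgeR adjusted p = 0.302), and without libraries 1 and 3 it was 0.46 (edgeR adjusted p = 0.280). DESeq2 was run at its defaults, which replace outlying counts in groups of 7 or more libraries. It gave 0.44 (adjusted p = 0.326), near the edgeR value without library 1, so it is not a value with library 1 as counted. All libraries as counted, with the mean log2 level of the suprachiasmatic markers as a covariate, gave 0.86 by edgeR (adjusted p = 0.345). Against control, RISP_PF gave 0.20 (95% interval -1.01 to 1.41). Against RISP_Ad.lib, RISP_PF gave -1.48 (-2.58 to -0.39, edgeR adjusted p = 0.241), and -0.26 without library 1. DESeq2, with the same replacement of outlying counts, gave -0.23, and edgeR with the marker covariate gave -0.43.

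The vesicular glutamate transporter gene Slc17a7, a marker of cortical and hippocampal excitatory neurons, stood at 699 CPM in library 1 and between 2.10 and 55.1 CPM in the other 19. The cortically rich receptor gene Vipr1, which codes for the other receptor of Vip, was at 15.8 CPM in library 1 and between 0.947 and 3.39 CPM elsewhere. The peptide gene Cck was at 156 CPM there and between 11.955 and 30.6 CPM elsewhere. As a list, 9 markers of forebrain interneurons were mixed in library 1. Their summed CPM was the lowest of all libraries, at 274.7 against 298.3 to 355.1 elsewhere. Their mean log2 CPM was the highest, at 4.136 against 3.609 to 3.985 elsewhere. The part of tissue from outside the hypothalamus in the Vip value of library 1 was not tested. In slices of bulk tissue, fewer cells of a type and less RNA per cell cannot be told apart, and this holds for each gene described here.

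**Figure D3:**
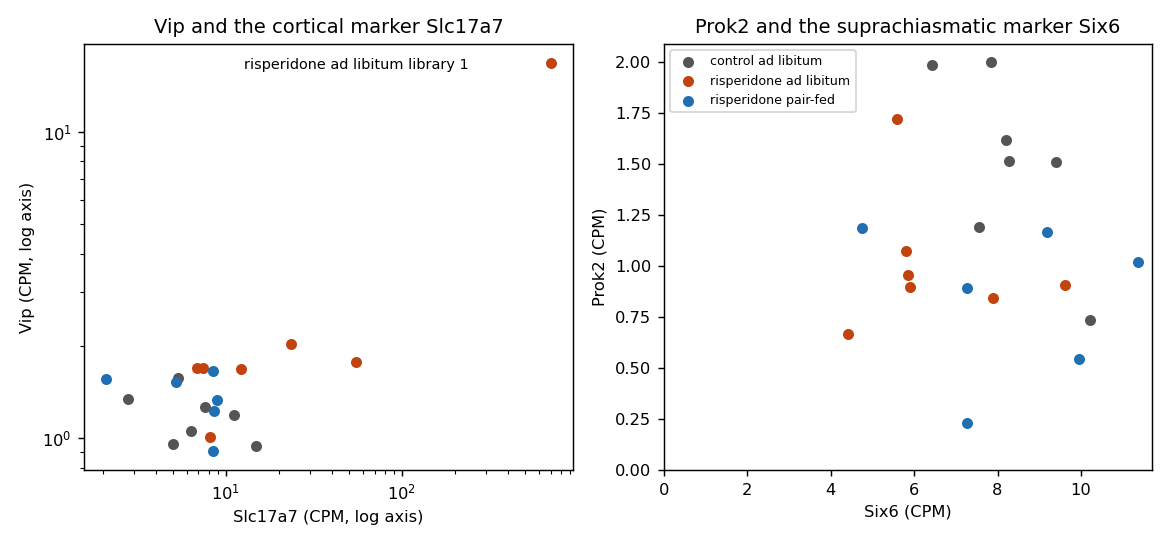
Left, Vip against Slc17a7, both in CPM on log axes. Right, Prok2 against Six6 in CPM, each point a library coloured by group. Library 1 of risperidone ad libitum lies apart on the left at 699 CPM of Slc17a7 and 16.7 CPM of Vip. On the right Six6 runs from 6.44 to 10.2 CPM in controls, from 4.41 to 9.62 in RISP_Ad.lib and from 4.75 to 11.4 in RISP_PF. Six6 is 1 of 8 suprachiasmatic markers, of which 5 had higher and 3, Six6 among them, lower values in RISP_Ad.lib than in controls.

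Nms, the neuromedin S gene, was at the edge of detection. Controls had 0.284 to 0.618 CPM (median 0.391), from 5 to 11 counts. The RISP_Ad.lib libraries had 0 to 0.735 CPM (median 0.339), and the RISP_PF libraries had 0.172 to 0.863 CPM (median 0.549). RISP_Ad.lib library 3, the shallow one, had 0 counts, which allows a level of up to 0.422 CPM (3 counts). As counted, 2 of 7 RISP_Ad.lib libraries lay below the control range and 2 of 7 above it. In RISP_PF 2 of 6 lay below and 3 of 6 above. The 2 below in RISP_Ad.lib include library 3, whose limit of 0.422 CPM is inside the control range. The log2 fold change was -0.02 in RISP_Ad.lib (95% interval -0.85 to 0.81) and 0.38 in RISP_PF (-0.42 to 1.17). Both intervals span 0 and are wide at this depth, and neither is a limit of detection.

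Prok2, the rhythmic output peptide, had lower values in both risperidone groups than in controls, and the difference did not pass the adjusted threshold. Controls had 1.52, 2.001, 0.737, 1.99, 1.62, 1.19 and 1.51 CPM. RISP_Ad.lib had 0.665, 1.72, 0.845, 0.905, 1.07, 0.899 and 0.956 CPM, and RISP_PF had 0.895, 0.229, 1.19, 0.544, 1.17 and 1.02 CPM. Of the 13 risperidone libraries 12 were under the control mean, and 6 of 7 controls were above every RISP_PF library. For control library 6 this was a near tie, at 1.192 CPM (21 counts) against 1.187 CPM (22 counts) in RISP_PF library 3. The groups overlapped through control library 3, at 0.737 CPM, and RISP_Ad.lib library 2, at 1.72 CPM. Mean levels were 1.51 ± 0.444 CPM in controls (SD, n = 7), 1.01 ± 0.337 in RISP_Ad.lib (SD, n = 7) and 0.840 ± 0.381 in RISP_PF (SD, n = 6). The log2 fold change against control was -0.83 in RISP_PF (SE 0.280, 95% interval -1.41 to -0.25, unadjusted p = 0.00682 and adjusted p = 0.385, edgeR). In RISP_Ad.lib it was -0.55 (SE 0.265, -1.10 to -0.00188, adjusted p = 0.380, edgeR). The mean of both risperidone groups gave -0.69 (SE 0.229, -1.17 to -0.22, unadjusted p = 0.00618 and adjusted p = 0.384, edgeR). RISP_PF differed from RISP_Ad.lib by -0.28 (-0.90 to 0.33). Leaving out any single library moved the RISP_PF value between -0.96 and -0.65, and without RISP_Ad.lib libraries 1 and 3 the RISP_Ad.lib value was -0.43. The values rest on 4 to 38 counts per library. Regional markers differed between the same groups. In RISP_Ad.lib 10 of 10 hypothalamus markers had lower values than in controls (median log2 fold change -0.34, 5 at an unadjusted p under 0.05), as did 6 of 6 ependyma markers (-0.33, all 6). In RISP_PF 8 of 10 hypothalamus markers (-0.14, 1 at that level) and 5 of 6 ependyma markers (-0.05, 0 at that level) had lower values. Of all genes, 13.1% in RISP_Ad.lib and 6.66% in RISP_PF were at that level. Some other lists had mostly higher values. Suprachiasmatic markers were higher in 5 of 8 in RISP_Ad.lib and 8 of 8 in RISP_PF. Forebrain interneuron markers were higher in 8 of 9 and 7 of 9, and oligodendrocyte markers in 7 of 7 in both. Further lists differed between the 2 contrasts. Markers of cortex, hippocampus and amygdala were higher in 9 of 9 tested in RISP_Ad.lib, and lower in 6 of 9 in RISP_PF. Thalamus markers were higher in 6 of 6 in RISP_Ad.lib, and lower in 4 of 6 in RISP_PF. These fold changes include RISP_Ad.lib library 1, which held the lowest hypothalamus and ependyma sums, at 525.8 and 33.92 CPM. None of these markers passed the adjusted threshold by edgeR, and their part in the Prok2 values was not tested. With the mean log2 level of the 8 suprachiasmatic markers as a covariate, Prok2 was -0.58 in RISP_Ad.lib and -0.81 in RISP_PF.

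**Figure D4:**
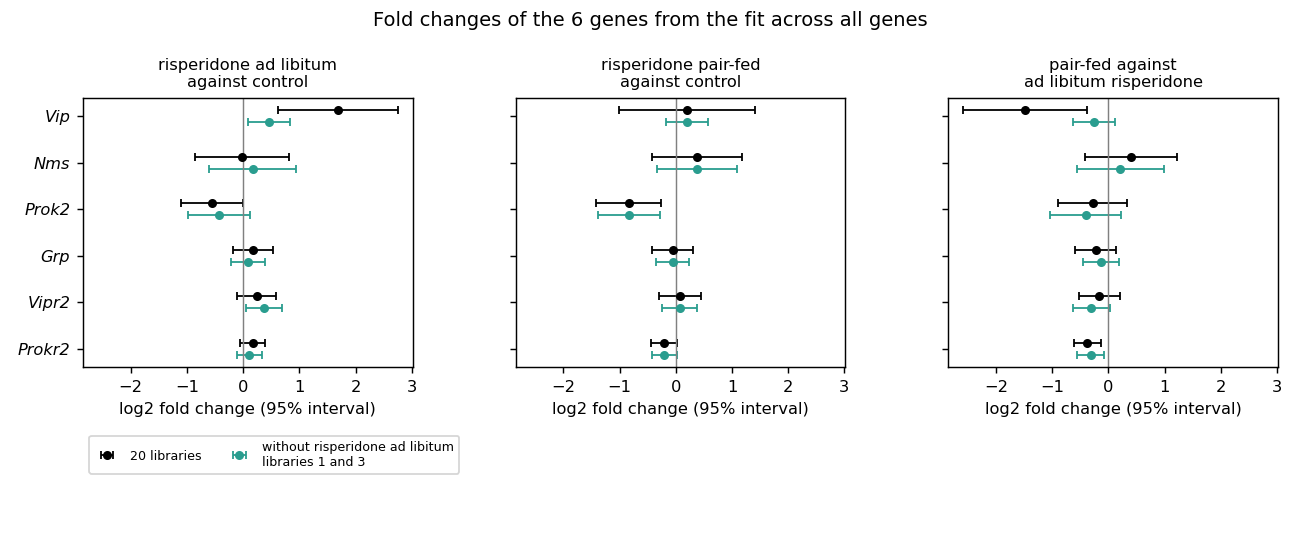
log2 fold change with its 95% interval (horizontal) for each gene in 3 contrasts, from all 20 libraries (black) and without RISP_Ad.lib libraries 1 and 3 (green). Prok2 lies left of 0 in both contrasts with control, and Vip moves from 1.69 to 0.46 in RISP_Ad.lib when those libraries are left out.

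Grp, the gastrin-releasing peptide gene, had the highest level per kb of the 6, with group means between 4.39 and 5.08 CPM. Controls ranged from 3.73 to 5.33 CPM (median 4.63), RISP_Ad.lib from 3.38 to 8.04 (median 4.63) and RISP_PF from 2.67 to 5.61 (median 4.44). The highest value, 8.04 CPM, came from RISP_Ad.lib library 1, which also held the high Vip value, and the next, 6.47 CPM, from library 2. Without library 1 the RISP_Ad.lib mean was 4.58 ± 1.05 CPM (SD, n = 6), beside 5.08 ± 1.62 with it (SD, n = 7). The log2 fold change against control was 0.18 in RISP_Ad.lib (95% interval -0.18 to 0.53) and -0.05 in RISP_PF (-0.42 to 0.31).

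Vipr2, the receptor gene for Vip in this nucleus, ranged from 2.12 to 2.92 CPM in controls, from 1.55 to 3.99 in RISP_Ad.lib and from 1.61 to 3.83 in RISP_PF. Of the risperidone libraries, 4 of 7 in RISP_Ad.lib and 3 of 6 in RISP_PF were above the highest control, and 1 of each group was below the lowest. The log2 fold change was 0.24 in RISP_Ad.lib (95% interval -0.11 to 0.59) and 0.07 in RISP_PF (-0.29 to 0.44). The lowest RISP_Ad.lib value, 1.55 CPM from 11 counts, was that of library 3. Without libraries 1 and 3 the RISP_Ad.lib mean was 3.33 ± 0.464 CPM (SD, n = 5) and the log2 fold change 0.38 (0.06 to 0.70, edgeR adjusted p = 0.304).

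Prokr2, the receptor gene for prokineticin 2, had its widest difference between the risperidone groups. Controls had 5.39 to 7.77 CPM (median 7.31). The RISP_Ad.lib libraries had 8.95, 7.88, 7.75, 7.81, 5.76, 7.14 and 7.87 CPM, and the RISP_PF libraries had 5.98, 4.75, 7.18, 6.09, 5.96 and 5.09 CPM. All 6 RISP_PF libraries were under the RISP_Ad.lib mean of 7.59 ± 0.970 CPM (SD, n = 7), and the groups overlapped through RISP_Ad.lib libraries 5 and 6, at 5.76 and 7.14 CPM, and RISP_PF library 3, at 7.18 CPM. RISP_PF against RISP_Ad.lib gave a log2 fold change of -0.38 (SE 0.112, 95% interval -0.61 to -0.14, unadjusted p = 0.00299 and adjusted p = 0.172, edgeR). The control group lay between them: 0.17 (-0.05 to 0.39) for RISP_Ad.lib and -0.21 (-0.44 to 0.03) for RISP_PF against control. Without libraries 1 and 3 the difference between the risperidone groups was -0.32 (edgeR adjusted p = 0.270).

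The related ligands and receptors of these families, 12 genes such as Adcyap1 and Nmur2 of which 10 were tested, gave 0 called genes in each comparison by edgeR, DESeq2 and voom. By edgeR, 13.1% of all genes had an unadjusted p under 0.05 in RISP_Ad.lib against control. The share was 6.66% in RISP_PF against control and 13.5% between the risperidone groups. Of these 10 related genes, 3, 0 and 1 did in the same order. Their median log2 fold change was 0.01 in RISP_Ad.lib and -0.09 in RISP_PF, beside 0.00766 and 0.00265 for all genes. Nmur2, the brain receptor of neuromedins, had -0.41 in RISP_Ad.lib (SE 0.138, edgeR adjusted p = 0.236) and -0.25 in RISP_PF (adjusted p = 0.829). Vipr1 had 1.56 in RISP_Ad.lib (SE 0.499, edgeR adjusted p = 0.214), 0.46 without library 1 (edgeR adjusted p = 0.451) and 0.48 without libraries 1 and 3 (edgeR adjusted p = 0.404). Of 17 genes of signalling below the receptors, 17 were tested and 0 were called by edgeR, with 3, 1 and 4 at an unadjusted p under 0.05 in the same contrasts. Sik1, a kinase gene induced by cyclic AMP, came nearest, at 0.33 between RISP_PF and RISP_Ad.lib (SE 0.0753, edgeR adjusted p = 0.0527), and was the 1 gene of this list called there by DESeq2 and by voom. Of 8 suprachiasmatic markers, 0 were called by edgeR, DESeq2 or voom, with 3, 1 and 2 at an unadjusted p under 0.05 by edgeR. Six3, a developmental transcription factor, had -0.34 in RISP_Ad.lib (SE 0.0997, edgeR adjusted p = 0.189). Syt10, with the next smallest p there, had 0.35 (SE 0.156, edgeR adjusted p = 0.333). In that contrast 5 of the 8 had higher values and 3 lower.

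Among 12 other suprachiasmatic peptides and receptors, of which 11 were tested, 1 rose and 0 fell in each contrast with control. The gene that rose was Penk, which codes for proenkephalin, the precursor of the enkephalin opioid peptides. The 7 controls had 116 to 135 CPM, the RISP_Ad.lib libraries 146 to 206 CPM and the RISP_PF libraries 152 to 181 CPM, with no overlap between control and risperidone libraries. The log2 fold change was 0.39 in RISP_Ad.lib (SE 0.0655, edgeR adjusted p = 0.0343) and 0.37 in RISP_PF (SE 0.0679, edgeR adjusted p = 0.00571). The RISP_Ad.lib call was lost in 10 of 30 alternative settings, with an adjusted p of at most 0.0840. These were the fit of the compared groups alone, the replicate block, and the fits without any one of control libraries 1 to 6 or RISP_Ad.lib libraries 2 and 7. Penk shares 233 exon bases with the antisense gene A830012C17Rik, which had 15 counts in all libraries. Penk is expressed in many parts of the hypothalamus and the forebrain, so this value is not one of the nucleus alone.

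Of 18 clock genes, all tested, edgeR called 1 higher and 0 lower in RISP_PF, both against control and against RISP_Ad.lib. DESeq2 and voom called the same gene, Dbp, in both contrasts. Against RISP_Ad.lib, DESeq2 also called Npas2 lower, and voom called Npas2 lower and Nr1d1 higher. By edgeR, Npas2, a partner of the clock protein BMAL1, had -0.67 there (adjusted p = 0.0967) and Nr1d1, a clock repressor gene, 0.16 (adjusted p = 0.382). These last 2 genes were chosen after their values were seen. Dbp, a clock output transcription factor, had 25.9 to 36.3 CPM in controls, 27.0 to 33.1 in RISP_Ad.lib and 35.0 to 42.0 in RISP_PF. Its log2 fold change in RISP_PF was 0.32 against control (SE 0.0669, edgeR adjusted p = 0.0215) and 0.37 against RISP_Ad.lib (SE 0.0675, edgeR adjusted p = 0.0103). The control contrast was lost in 9 of 30 alternative settings: the replicate block (adjusted p = 0.142) and the fits without control library 1, 2, 4 or 7 or RISP_PF library 1, 2, 4 or 5. The contrast with RISP_Ad.lib was lost under the block (adjusted p = 0.0747). Dbp shares 539 exon bases with Sphk2 on the opposite strand. Over all libraries Sphk2 held 11810 counts and Dbp 11443. Since the strand setting of the counting is not given, the Dbp counts are uncertain. In RISP_Ad.lib against control 0 of 18 clock genes were called by edgeR, DESeq2 or voom. By edgeR 6 of the 18 had an unadjusted p under 0.05, beside 13.1% of all genes. The smallest p of the 18 was that of Rora, a nuclear receptor of the clock, at 0.24 (SE 0.0680, edgeR adjusted p = 0.187).

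Over the 15 pairs of the 6 genes, group-centred log2 CPM correlated in 0 pairs at an adjusted p under 0.05 (20 libraries, permutation test with 100000 resamples). The highest was Vip with Grp, with Pearson r = 0.57 (p = 0.00983, adjusted p = 0.147, permutation) and Spearman rho = 0.43 (p = 0.0596, adjusted p = 0.605, permutation). Without the 2 libraries farthest from the median of Vip, r was 0.17, so the relation rests on those libraries. Vipr2 with Nms gave r = 0.48 (p = 0.0359, adjusted p = 0.269, permutation) and rho = 0.33 (p = 0.161, adjusted p = 0.605, permutation), and 0.14 without the 2 farthest libraries. Within groups, the r of Vip and Grp was -0.24 in controls (n = 7), 0.78 in RISP_Ad.lib (n = 7) and 0.33 in RISP_PF (n = 6). Vip with its receptor Vipr2 gave r = -0.12 over the 20 libraries, and Prok2 with its receptor Prokr2 gave 0.29.

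The genes whose pattern over libraries was most like each member, out of 14008 tested genes of at least 1 CPM, are given as a description, by Pearson r of group-centred log2 CPM over 20 libraries. The 2 libraries that stand apart in depth and tissue markers enter all of these values, so the genes found without them are given too. For Vip they were Nlk (0.95), Lmo7 (0.95), Phyhip (0.94), Ak5 (0.94) and Pgbd5 (0.94). Without RISP_Ad.lib libraries 1 and 3 they were Tmem170 (0.81), Ndn (0.74), Pex19 (0.70), Mrps27 (0.69) and Pithd1 (0.67), none of them shared with the first set. For Grp they were Msantd3 (0.88), Aloxe3 (0.85), Sec14l2 (0.84), Rapgef4 (0.84) and Bhlhe22 (0.82). Msantd3 (0.87) and Bhlhe22 (0.83), a transcription factor gene, led without the 2 libraries as well. That set still held RISP_Ad.lib library 2, which was second to library 1 in Grp (6.47 and 8.04 CPM). Library 2 was also second to library 1 in Bhlhe22 (10.7 and 52.4 CPM) and in the summed cortical markers (239 and 1327 CPM). Bhlhe22 was at most 7.62 CPM in the remaining libraries. For Prok2 they were Rbms1 (0.78), Epha2 (0.78), Pi15 (0.78), Ccdc36 (0.76) and Fndc9 (0.75), of which Epha2, Pi15 and Fndc9 were among the top 5 without the 2 libraries. For Vipr2 they were Nrsn1 (0.89), Fgf9 (0.85), Serpine2 (0.85), Nkiras1 (0.85) and Kcnab3 (0.84), and Kank4 (0.90) and Kcng4 (0.89) led without the 2 libraries. For Prokr2 they were Fech (0.77), Cyfip1 (0.77), Tmtc3 (0.75), Dsel (0.75) and Pde7a (0.73), and only Pde7a was shared with the set without them. Nms averaged under 1 CPM and was not compared.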

How the data were processed

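The values are whole-number gene counts that the authors deposited without normalization, 1 column per library. STAR, featureCounts and DESeq2 with the builds GRCm38 and mm10 are named, per the submitters' processing notes. The strand setting, filters and tool versions were not given in the sources used here. Reads were 150 bp paired-end, per the labels' protocols. Of 55471 genes, 55230 were found by identifier in GENCODE for GRCm38, 241 had no match, and 13801 had no count. All value columns belonged to the 20 libraries.

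In R 4.3.3, edgeR 4.0.16 was run on the counts (TMM scaling, filterByExpr with minimum count 10, quasi-likelihood F test, two-sided), with the 20 libraries in 1 model and 17893 genes. The threshold was an adjusted p of 0.05 (Benjamini-Hochberg). CPM are these counts divided by the TMM-scaled library sizes. The common biological coefficient of variation was 11.3%. Log values used a prior count of 2. Scripts were tested on simulated data. DESeq2 1.42.0, limma 3.58.1 (voom), other scalings and filters, a replicate block, left-out libraries and a suprachiasmatic marker covariate were the alternatives. Over 57 same-group pairs of libraries the chi-square per degree of freedom was at least 2.64, so no pair agreed within sampling noise and each library was counted once. Libraries of the same number in different groups correlated at -0.16 to 0.30 over 19 pairs. The labels do not say whether the numbers pair the samples, and these correlations cannot exclude a pairing in the design.

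The members and lists were chosen with earlier results of these data known. The 6 members were always named, with the 5 genes most like each (mean CPM of at least 1), and from each pathway list the called genes or, if none, those with the smallest p. Sequences come from RefSeq promoter windows.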

Additional observations from a re-analysis of the deposited data

Results flagged for a closer look

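In groups of 6 or 7 libraries, a highest or lowest value was marked where its gap to the nearest other library exceeded Dixon's 95% critical value as a share of the group's range. Over 30 groups of values examined, chance alone marks about 1 in 20. All 5 marked values lay in RISP_Ad.lib. Vip was 16.7 CPM in library 1, a gap of 0.935 of the range. Prok2 was 1.72 CPM in library 2, a gap of 0.614 of the range. The total count of library 3 was 9748005, and its summed suprachiasmatic markers were 292 CPM. The summed markers of cortex, hippocampus and amygdala were 1327 CPM in library 1. The part of these marker levels in the values of the 6 genes was not tested.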

How the results depend on the processing

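None of the 6 genes passed the adjusted threshold under any of the 30 alternatives (29 for the mean of both risperidone groups). Of 695 alternative fold changes in 24 results of the 6 genes, 677 kept their direction and 18, in 6 results near 0, did not. Nms had a value in 25 alternatives, since it failed the filter in the others. Nms in RISP_Ad.lib was 0.17 without libraries 1 and 3 and ranged from -0.0901 to 0.141 with 1 library left out. By voom, Vipr2 in RISP_PF was -0.0473 and the Nms mean contrast -0.00118; with the marker covariate, Grp in RISP_PF was 0.0134. With 1 library left out, Vipr2 in RISP_PF ranged from -0.0538 to 0.188, Grp in RISP_PF from -0.137 to 0.0550, the Prokr2 mean contrast from -0.0656 to 0.0182 and the Grp mean contrast from -0.00809 to 0.116.

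The numbers of genes called, in the order RISP_Ad.lib, RISP_PF, RISP_PF against RISP_Ad.lib and the mean contrast, were 11, 87, 71 and 59. DESeq2 called 112, 132, 169 and 97, and voom with quality weights 51, 223, 139 and 151. Fits of the compared groups alone called 3, 245 and 31. Without RISP_Ad.lib libraries 1 and 3 the counts were 48, 250, 142 and 193. The marker covariate gave 23, 121, 123 and 98. Leaving out 1 library gave 0 to 35, 66 to 166, 39 to 130 and 36 to 99. The cause of these changes was not tested. With the replicate number as a block the counts were 1, 65, 48 and 45. No library correlated best with its own number (0 of 20). The labels do not say that the numbers pair samples, so they were not taken as pairs. Under the block Prok2 in RISP_PF was -0.81 (edgeR adjusted p = 0.720).

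Per kb of the longest transcript, control levels were 0.470 for Vip, 0.755 for Vipr2, 1.04 for Prok2 and 1.504 for Prokr2. Low counts limit the 6 genes: Nms had 0 to 16 counts per library, Prok2 4 to 38, and Vip 12 to 36 outside RISP_Ad.lib library 1.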
